A study of Caenorhabditis elegans with 2 samples.

Results

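The piRNA gene clusters of chromosome IV of *Caenorhabditis elegans* were examined in a chromatin immunoprecipitation and sequencing (ChIP-seq) study of FKH-3, a transcription factor of the forkhead family. Regions listed by the authors for the pooled replicates were counted as members where their summit, the position of highest signal, lay on chromosome IV between 4.5 and 7.0 Mb (cluster A) or between 13.5 and 17.2 Mb (cluster B) of build ce11. There were 1049 members among 30000 listed regions, 550 in cluster A and 499 in cluster B. The rest of chromosome IV held 3298 regions. The same bounds took 1096 of 30000 regions in replicate 1 and 1153 of 30000 in replicate 2, against 3373 and 3289 regions of the rest of chromosome IV.

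The worms were young adults of mixed sex of strain OP594, genotype *unc-119(tm4063)* III; *wgIs594*, taken 63 h after starved L1 larvae had been synchronised. A stably inherited transgene made FKH-3 tagged at its C terminus by GFP-FLAG, and an anti-GFP antibody was used, although the antibody field of the labels names fkh-3. Both biological replicates (2 in all, 1 group) had this genotype, and there was no second condition. The labels name neither the promoter of the transgene nor its copy number. Whole animals were used, so binding in few cells and weak binding in many cells cannot be told apart. Each list of 30000 holds peaks together with background. The pooled regions that passed the authors' irreproducible discovery rate (IDR) threshold, a filter on the agreement between replicates, were also its regions of highest signal, without exception. The signal is the authors' score on a scale not stated, used below as a rank in which 1 is the highest. Read depth is unknown. Intervals are exact 95% binomial intervals for counting error alone, and neighbouring regions or genes are not independent, so the intervals are narrower than they should be.

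The piRNAs of *C. elegans*, also called 21U-RNAs, are small RNAs of the germ line that bind the Argonaute protein PRG-1 and direct the silencing of foreign and selfish sequences. Most are encoded as very short independent genes packed into broad clusters, each transcribed by RNA polymerase II from its own start. Many carry an upstream motif with the core CTGTTTCA, and the protein SNPC-4, which also serves at small structural RNA genes, acts at the clusters together with PRDE-1, TOFU-4 and TOFU-5. Forkhead proteins have been linked in earlier work to these upstream sequences, which is why the clusters are of interest for FKH-3.

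The bounds took in most annotated piRNA genes. Of 14714 annotated piRNA genes on chromosome IV, 14204 lay in the clusters (2816 in A and 11388 in B) and 510 in the rest of the chromosome. This is 2291 piRNA genes per Mb in the clusters, against 45.2 in the rest. Together the clusters held 92.5% of the 15363 piRNA genes annotated in the genome. The bounds are coarse at their outer ends. The first 0.3 Mb of cluster A held 9 piRNA genes and 107 of its 550 pooled members, and the 0.1 Mb just right of cluster B, counted with the rest, held 146 piRNA genes and 35 regions.

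The sequences below show what a piRNA gene looks like under a listed region and where the motif stands. The member at chrIV:15899369-15899758 in cluster B, pooled rank 282, was the IDR region with a summit within 100 bp of a piRNA gene, and it covered *21ur-6535* and *21ur-12370*, a pair of overlapping genes on the minus strand whose 5′ ends lie next to each other. Its summit window of 100 bp to either side (chrIV:15899464-15899664, plus strand, RefSeq sequence of WBcel235, the same assembly as ce11) is printed first, with both piRNA genes and the motif, here in reverse complement, in capitals. The next lines, also from RefSeq, give the gene's own strand, with the 60 bases before each 5′ end in lower case, the motif in capitals and the 21-base gene in capitals at the end. *21ur-1248* and *21ur-7502* lie under the members of highest signal in cluster A that hold a piRNA gene and are not in the IDR list. *21ur-4111* is shown for contrast, since its 60 upstream bases hold no CTGTTTCA. They do hold CTGTTTCT, which differs only in its last base. The summit window of its member also holds CTGTTTCA, in reverse complement and outside these upstream bases.
IDR member window at 21ur-6535: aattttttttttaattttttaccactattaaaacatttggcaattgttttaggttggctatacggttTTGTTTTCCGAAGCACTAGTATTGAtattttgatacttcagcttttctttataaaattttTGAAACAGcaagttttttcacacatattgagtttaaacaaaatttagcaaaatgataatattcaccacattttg
21ur-6535, chrIV:15899531-15899611, minus strand: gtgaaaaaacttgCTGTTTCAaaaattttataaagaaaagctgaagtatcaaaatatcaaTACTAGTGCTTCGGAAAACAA
21ur-1248, chrIV:5932726-5932806, minus strand: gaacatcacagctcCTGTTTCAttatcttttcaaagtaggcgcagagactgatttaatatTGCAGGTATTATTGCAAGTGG
21ur-7502, chrIV:5376528-5376608, plus strand: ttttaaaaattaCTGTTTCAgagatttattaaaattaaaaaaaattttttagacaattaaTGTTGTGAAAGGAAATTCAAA
21ur-4111, chrIV:16619747-16619827, minus strand: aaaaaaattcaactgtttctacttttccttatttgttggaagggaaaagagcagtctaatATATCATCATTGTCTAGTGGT

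In *21ur-6535* the motif began 47 bases before the 5′ end, in *21ur-1248* 46 bases and in *21ur-7502* 48 bases. The sequence between motif and gene is rich in A and T in *21ur-6535* and *21ur-7502*, and less so in *21ur-1248*. The 100 bases to either side of piRNA gene 5′ ends of the clusters had a median GC content of 27.4%, against 34.3% at positions of the clusters away from piRNA genes.

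Listed regions were sparse in the piRNA clusters. The pooled list held 169 regions per Mb in the clusters and 292 per Mb in the rest of chromosome IV, a ratio of 0.579. In replicate 1 the clusters held 177 per Mb and the rest 299 (ratio 0.592), and in replicate 2 the clusters held 186 and the rest 291 (ratio 0.639). The clusters make up 35.4% of the bases of the chromosome and held 24.1% of its pooled regions, 24.5% of those in replicate 1 and 26.0% of those in replicate 2. Both lists made apart from each other therefore gave the direction of the pooled one.

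Cluster B, the denser in piRNA genes, had the lowest density of the segments in each list. It held 135 regions per Mb in the pooled list, 144 in replicate 1 and 147 in replicate 2. Cluster A held 220, 226 and 244. The stretch left of cluster A held 306, 323 and 288, that between the clusters 283, 283 and 293, and the short end right of cluster B 279, 282 and 303. The regions of the clusters covered 6.31% of bases in the pooled list, against 10.9% in the rest of the chromosome.

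**Figure D1:**
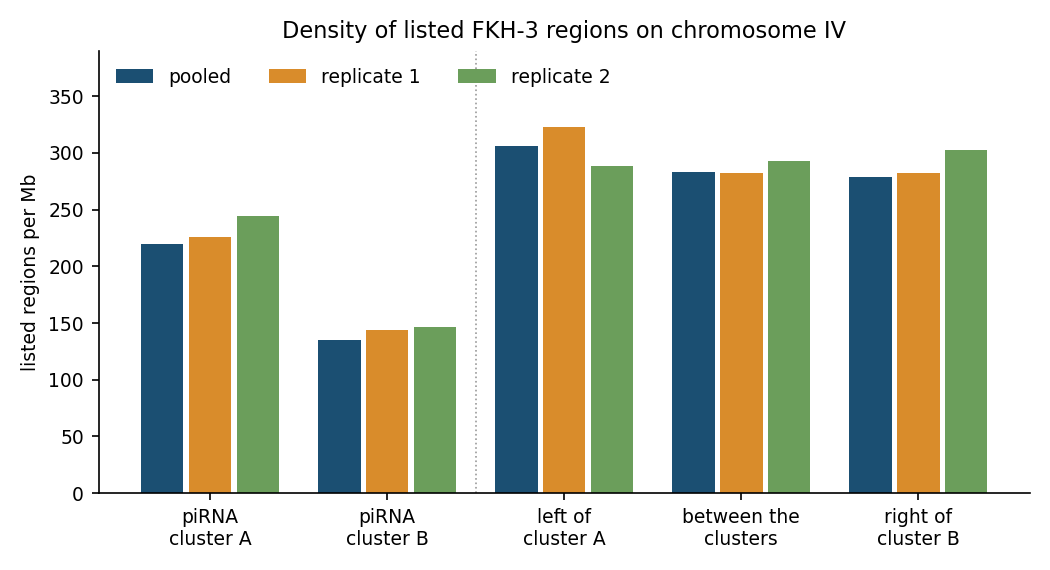
Listed regions per Mb (vertical axis, from 0) in the 2 piRNA clusters, left of the dotted line, and in the other segments of chromosome IV, with a bar for each list. Both clusters lie below all other segments in each list, with cluster B at 135 to 147 regions per Mb.

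Within the clusters, the density of listed regions was lowest where piRNA genes were most crowded. Among 62 bins of 100 kb, the 34 with 200 or more piRNA genes had a median of 11.5 pooled regions, with a range of 2 to 30. The 28 bins with fewer piRNA genes had a median of 21.5, with a range of 10 to 44. In replicate 1 the median was 12.5 in the crowded bins and 23 in the others, and in replicate 2 it was 13 in the crowded bins and 22 in the others. The ranges overlapped while the medians were lower in the crowded bins in all 3 lists. As a description across the 62 bins, the rank correlation (Spearman's rho) of regions with piRNA genes was -0.68 in the pooled list, -0.61 in replicate 1 and -0.64 in replicate 2. The same bins gave a rho of regions with GC content of 0.75, 0.60 and 0.72, and GC content and piRNA genes share the bins.

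GC content moved with this difference. The clusters had 33.0% GC (34.0% in A and 32.3% in B) and the rest of the chromosome 35.5%. In 5-kb windows under 30% GC, the pooled list held 24.4 regions per Mb in the clusters and 57.1 in the rest. At 34 to 36% GC it held 237 in the clusters and 257 in the rest, and at 38 to 40% GC 457 in the clusters and 433 in the rest. With the windows of the rest weighted to the GC content of the clusters, the pooled densities were 169.2 per Mb in the clusters and 200.99 per Mb in the rest, a ratio of 0.842. This ratio was 0.853 in replicate 1 and 0.898 in replicate 2. At matched GC content the ratio was thus nearer to 1 than the unweighted one in each list, and still below 1. Protein-coding genes were also fewer, at 151 per Mb in the clusters and 207 in the rest, and their part in the density was not tested.

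**Figure D2:**
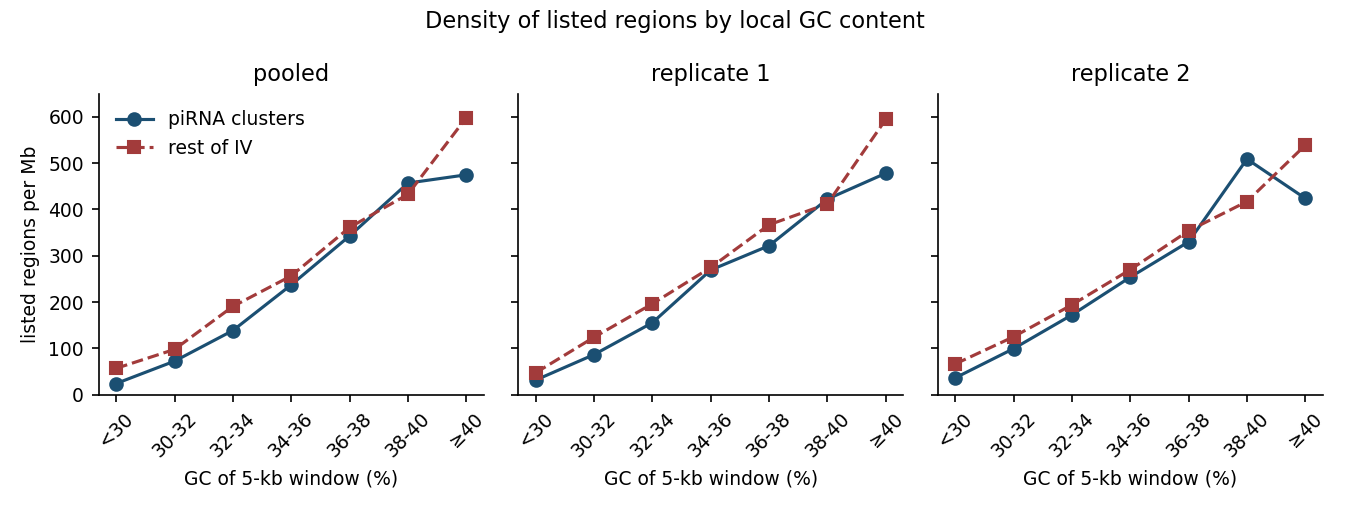
Listed regions per Mb (vertical axis) in 5-kb windows of chromosome IV grouped by GC content (horizontal axis, percent), for the piRNA clusters (circles) and the rest of the chromosome (squares), in the 3 lists. Density climbs with GC content in both, except in the clusters of replicate 2 above 40% GC, where it is 424 after 509 regions per Mb at 38 to 40%. The clusters lie below the rest in every class under 38% GC and from 40% GC up, and above it at 38 to 40% in all 3 lists.

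In signal the members were close to other regions of the chromosome. Their median rank was 15310 in the pooled list, against 14703 in the rest of chromosome IV. In replicate 1 it was 15660.5 for members against 14911 for the rest, and in replicate 2 it was 14927 for members against 14976 for the rest, so the order differed between the replicates. Pooled regions among the top 5000 made up 17.8% of members (187) and 17.1% of the rest (563).

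In the IDR list there were 21 members, 2.00% of 1049 (interval 1.24 to 3.04%), against 46 of the 3298 regions in the rest of chromosome IV (1.39%, interval 1.02 to 1.86%) and 1.47% of all 30000 pooled regions. The intervals overlap and that of the members holds the background. An equal number of regions, taken from the top of each replicate list by signal and called its top set below, gave 15 members in replicate 1 (1.37%) and 21 in replicate 2 (1.82%), against 49 regions of the rest in replicate 1 (1.45%) and 49 in replicate 2 (1.49%), where the background is 1.47% by construction. Replicate 1 was thus below the rest and replicate 2 above it. Per Mb, the clusters held 3.39 IDR regions and the rest 4.07. Cluster A had 8 IDR members (1.45% of its regions) and cluster B 13 (2.61%).

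More of the members of highest signal stood at genes for structural RNAs than at piRNA genes. Of 21 IDR members, 6 had their summit within 100 bp of a tRNA gene and 1 within 100 bp of an snRNA gene. In the rest of the chromosome 13 of 46 IDR regions stood at tRNA, snoRNA or snRNA genes. Over the whole pooled list, 33 members (3.15%, interval 2.18 to 4.39%) stood at such genes, which take 0.361% of the positions of the clusters. The median rank of those 33 was 1716, against 15310 for all members. The 21 members at tRNA genes had a median rank of 1187, with 19 among the top 5000, and the 21 tRNA regions of the rest had a median rank of 1389, with 14 among the top 5000. In replicate 1 the 21 tRNA members had a median rank of 1882, and in replicate 2 the 24 had 1169. Without all summits at tRNA, snoRNA and snRNA genes, the IDR share was 1.38% of members and 1.01% of the rest.

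The tRNA member of highest signal ranked 127 in the pooled list, 124 in replicate 1 and 287 in replicate 2. Its region at chrIV:16399087-16399476 holds *Y65A5A.t2*, a tRNA gene for alanine, in an intron of *Y65A5A.1*. The summit window of 100 bp to either side (chrIV:16399182-16399382, plus strand, RefSeq) is given to set beside the piRNA windows, with the tRNA gene (16399184 to 16399255, plus strand) in capitals.
tRNA member window at Y65A5A.t2: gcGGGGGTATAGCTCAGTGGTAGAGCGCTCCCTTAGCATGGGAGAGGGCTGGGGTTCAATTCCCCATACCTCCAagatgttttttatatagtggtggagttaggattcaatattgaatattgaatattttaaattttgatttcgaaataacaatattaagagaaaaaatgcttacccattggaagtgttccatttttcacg

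tRNA genes exist in similar copies, so reads from one copy can be counted at another, and the sources used here do not say how such reads were placed. Another alanine tRNA gene, *Y65A5A.t1*, lies under a separate IDR member at chrIV:16398188-16398577, with ranks of 364 pooled, 870 in replicate 1 and 496 in replicate 2. A member in an intron of *srv-16*, of a chemoreceptor family, held the glutamate tRNA genes *Y105C5B.t2* and *Y105C5B.t3* (286, 731 and 365, in the same order). The lysine tRNA gene *B0350.t1* (322, 242 and 931) and the snRNA gene *Y9C9A.111* (242, 584 and 305) lay in cluster A. Less even between replicates were the arginine tRNA gene *F13G11.t1*, at rank 311 in the pooled list, 17086 in replicate 1 and 232 in replicate 2, and the glycine tRNA gene *Y43D4A.t2*, at 400, 5535 and 307.

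The member of highest signal was at chrIV:14033867-14034256 in cluster B, over the microRNA gene *cel-mir-52*. It ranked 22 in the pooled list, 22 in replicate 1 and 23 in replicate 2, which makes it the most even of the IDR members. The nearest piRNA gene was 1139 bp from its summit.

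The other IDR members lay mostly in or near protein-coding genes. A pair lay shortly before a transcript start, one 158 bp upstream of *Y17G9B.5* (ranks 81 pooled, 278 in replicate 1 and 80 in replicate 2) and one 58 bp upstream of *tebp-2*, which encodes a telomere-binding protein (256, 452 and 352). A further one lay 475 bp upstream of *T22D1.3*, but ranked 280 in the pooled list, 10941 in replicate 1 and 164 in replicate 2. Members at *F29B9.5* and *cyn-13*, given below by intron and exon, lay 164 and 113 bp after a start. In introns lay the members at *zip-7*, a bZIP transcription factor gene (129, 896 and 74), *F29B9.5* (235, 498 and 309), the chemoreceptor gene *srz-71* (325, 1232 and 281) and *Y105C5A.15* (396, 542 and 303).

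In exons lay those at *ivd-1*, for isovaleryl-CoA dehydrogenase of leucine breakdown (189, 128 and 483), *eef-1B.2*, for a translation elongation factor subunit (368, 669 and 492), and *cyn-13*, for a cyclophilin (422, 875 and 1368). Intergenic members lay 2050 bp from the start of *C01G5.5* (217, 10639 and 105) and 4385 bp from that of *Y105C5A.24* (278, 676 and 324), the second in a window of 69.7% GC.

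Every one of the 21 IDR members lay in a region of each replicate list, but few were near the top of both. Only 3 (14.3%, interval 3.05 to 36.3%) were in the top set of both replicates, namely *cel-mir-52*, *Y17G9B.5* and *Y65A5A.t2*, against 20 of 46 in the rest of chromosome IV (43.5%, interval 28.9 to 58.9%). The difference lay in replicate 1, whose top set held 5 of the 21 members (23.8%) and 27 of the 46 others (58.7%). The top set of replicate 2 held 16 of the members (76.2%) and 35 of the others (76.1%). With the cut at 1000 the order turned, with 17 of 41 members (41.5%) and 45 of 121 others (37.2%) in both. At 5000 the shares were 29.4% of 187 members and 32.7% of 563 others. Over the whole pooled list, 40.6% of members and 40.8% of the rest lay in a region of both replicates.

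**Figure D3:**
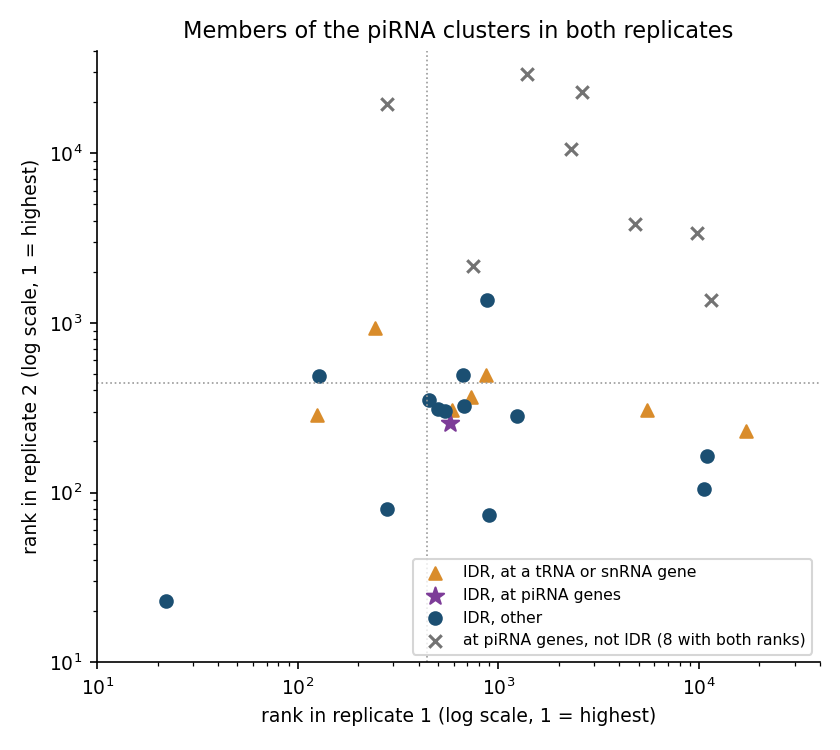
Rank in replicate 1 (horizontal) against rank in replicate 2 (vertical), both on log scales, for the 21 IDR members of the piRNA clusters and for the 8 named members at piRNA genes outside the IDR list with a rank in both. Dotted lines mark the last rank of the top set, equal in number to the IDR list, and 3 IDR members lie inside both.

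Summits of members lay at piRNA genes less often than the positions of the clusters do. Of 1049 pooled summits, 93 lay within 100 bp of a piRNA gene (8.87%, interval 7.22 to 10.8%), against 31.9% of all positions of the clusters. In replicate 1 there were 109 such summits (9.95%) and in replicate 2 there were 128 (11.1%). In cluster A the share was 5.45% against 18.4% of positions, and in cluster B 12.6% against 41.0%. The median distance of a summit to the nearest piRNA gene was 1775 bp in the pooled list, 1302 bp in replicate 1 and 1112 bp in replicate 2, and the median over all positions was 239 bp. Base composition moved with this difference too. Among positions of the clusters weighted to the GC content of the summit windows, 12.5% lay within 100 bp of a piRNA gene for the pooled summits, 12.9% for replicate 1 and 14.0% for replicate 2. The summit share was thus 0.711, 0.772 and 0.792 times that at matched GC content in the 3 lists, against 0.278 times that of all positions in the pooled list. The 12.5% lies outside the interval of the pooled share. That interval takes neighbouring summits as independent and is too narrow, so no test is read from it.

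The median member at a piRNA gene was also lower in signal than the median member away from one. In the pooled list the median rank was 16005 at piRNA genes (quartiles 9057 and 23853) and 15260.5 for the other members (6941.5 and 21741.5). The 2 spreads overlapped widely. In replicate 1 the medians were 18459 at piRNA genes and 15462 away, and in replicate 2 they were 18427.5 at piRNA genes and 14371 away. In the rest of chromosome IV only 9 pooled regions stood at piRNA genes, with a median rank of 10972 against 14709 away. Replicate 1 had that order too (8132 and 14934), and replicate 2 the other (21925 and 14968). The part of GC content in these ranks was not tested. Among the top 5000 were 11.8% of the pooled members at piRNA genes (11 of 93, interval 6.05 to 20.2%), which holds the 18.4% of those away (176). Both replicates gave the same order, with 9.17% at piRNA genes and 17.3% away in replicate 1, and 9.38% at piRNA genes and 18.4% away in replicate 2. Exactly 1 member at a piRNA gene was in the IDR list (1.08% of 93, interval 0.0272 to 5.85%). The share was 2.09% of the members away and 1.47% of all pooled regions, and the interval holds both. Each replicate's top set also held 1. This was 0.917% at piRNA genes against 1.42% away in replicate 1, and 0.781% against 1.95% in replicate 2.

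Counted from the genes, 251 of 14204 piRNA gene 5′ ends of the clusters lay inside a pooled region (1.77%, interval 1.56 to 2.00%), against 6.31% of all bases of the clusters. Replicate 1 gave 252 (1.77% against 6.26% of bases) and replicate 2 gave 366 (2.58% against 7.13%). At positions away from piRNA genes with the same distribution of GC content in such windows, the covered share was 2.83% in the pooled list, 2.80% in replicate 1 and 3.47% in replicate 2. The share at piRNA genes was thus 0.624, 0.634 and 0.742 times that at matched GC. The 5′ ends under regions of the top 5000 numbered 26, 28 and 32. The 26 were 0.183% of the genes, 0.157 times the share of cluster bases under those regions. Those under the IDR regions and the 2 top sets numbered 3 (0.0211%), 2 (0.0141%) and 2 (0.0141%). Of protein-coding 5′ ends of the clusters these regions held 0.425%, 0.106% and 0.319%. No share of bases is set beside the IDR and top-set counts, so nothing is read from them. In cluster A 2.70% of piRNA genes were covered, and in cluster B 1.54%.

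Genes for tRNAs, snRNAs and snoRNAs and protein-coding genes of the clusters were covered more often than piRNA genes. Pooled regions held 22 of 41 tRNA gene 5′ ends (53.7%, interval 37.4 to 69.3%), 6 of 16 of snRNA genes (37.5%), 5 of 18 of snoRNA genes (27.8%) and 2 of 19 of microRNA genes (10.5%, interval 1.30 to 33.1%), an interval that holds the piRNA share. They held 93 of 941 protein-coding 5′ ends (9.88%, interval 8.05 to 12.0%). In the rest of chromosome IV the shares were 70.0% of 30 tRNA genes, 12.7% of 2340 protein-coding genes and 4.12% of 510 piRNA genes. In the pooled list piRNA genes had the lowest share of the 6 types in the plot by gene type, both in the clusters and in the rest.

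**Figure D4:**
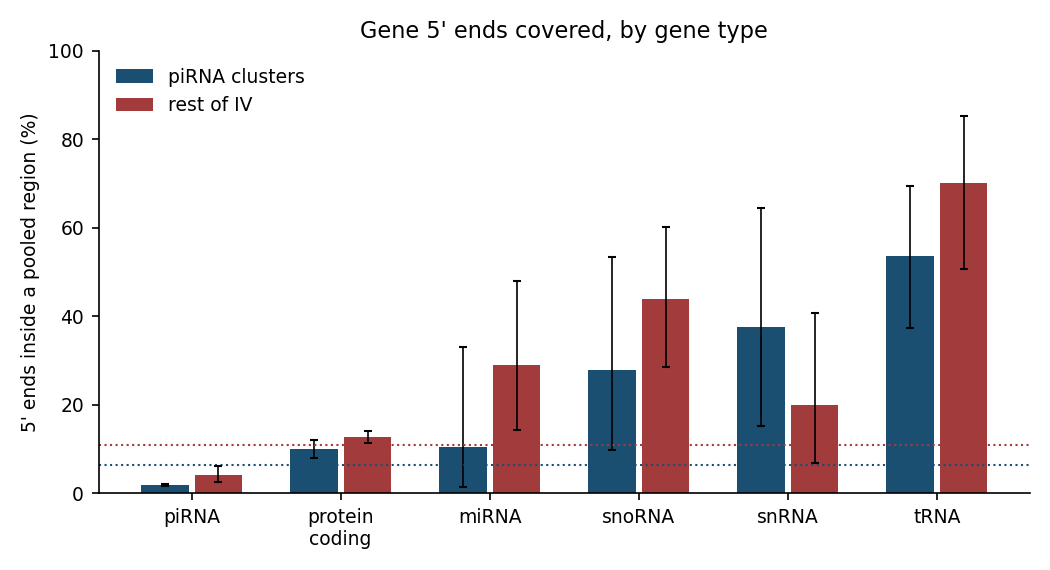
Percent of gene 5′ ends inside a pooled region (vertical axis, from 0) by gene type, in the piRNA clusters (left bar) and in the rest of chromosome IV (right bar), with exact 95% binomial intervals. Dotted lines give the percent of all bases covered, 6.31% in the clusters and 10.9% in the rest, and only piRNA genes in the clusters and outside lie below their line with the whole interval.

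Around piRNA genes the coverage dipped at the 5′ end or shortly before it. For the 4944 genes with CTGTTTCA in the 60 bases before the 5′ end (34.8% of 14204), pooled regions covered 2.20% at the 5′ end, with a low of 2.04% at -50 bp and a high of 3.78% at 750 bp, over 1000 bp to either side. For the 9260 genes without it they covered 1.53% at the 5′ end, which was the lowest value, and at most 3.23%. In replicate 1 the lows were 1.36% with the motif and 1.70% without it, both at -100 bp. In replicate 2 they were 2.79% with the motif, at -100 bp, and 2.30% without it, at the 5′ end. No offset reached the 6.31%, 6.26% or 7.13% of all cluster bases covered in the 3 lists. These curves were not matched for GC content.

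**Figure D5:**
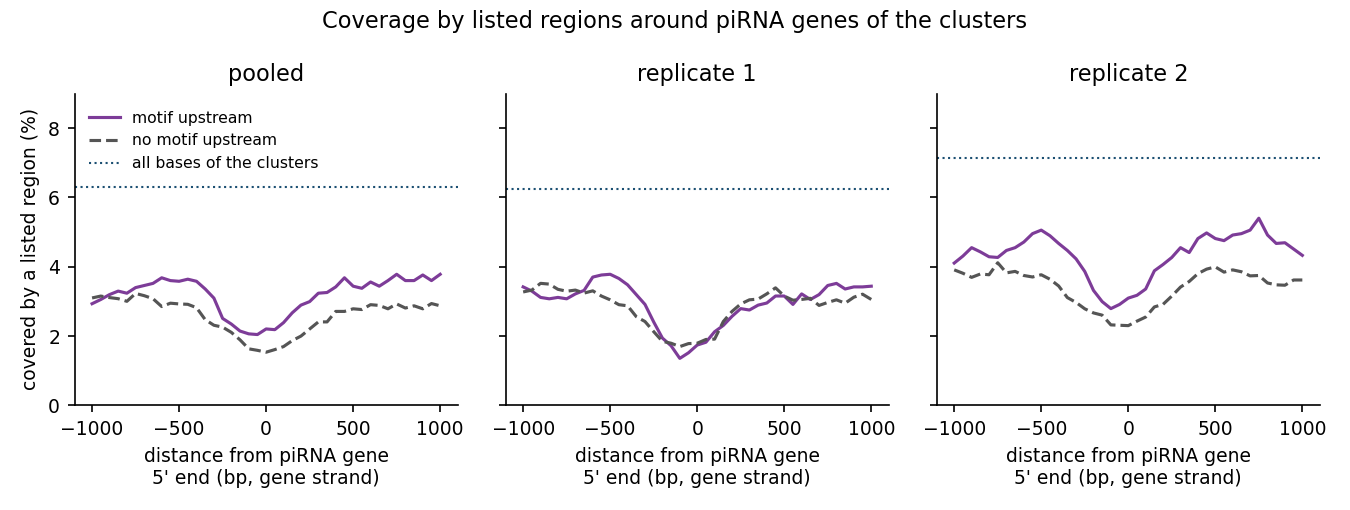
Percent of piRNA genes of the clusters covered by a listed region (vertical axis) by distance from the 5′ end in bp along the gene's strand (horizontal axis), with and without the upstream motif, in the 3 lists. The dotted line is the percent of all cluster bases covered, and both curves dip near the 5′ end in each list.

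The upstream motif, taken as the whole word CTGTTTCA, did not mark covered genes in both replicates. In the pooled list 109 of 4944 genes with the motif were covered (2.20%, interval 1.81 to 2.65%) and 142 of 9260 without it (1.53%, interval 1.29 to 1.80%). In replicate 2 the counts were 153 with the motif (3.09%) and 213 without it (2.30%). In replicate 1 they were 86 with the motif (1.74%) and 166 without it (1.79%), which turns the order round. Since the pooled list is made from the same samples, it is no further replicate. Many genes without the whole word hold its shorter part GTTTCA, which stood upstream of 9231 genes (65.0%). In the pooled list 2.04% of genes with GTTTCA were covered (interval 1.76 to 2.35%) and 1.27% of those without it (interval 0.975 to 1.62%). For the shorter word only the pooled list is given here.

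A forkhead motif, taken as the word GTAAACA, its variant ATAAACA, the word GTAAATA or its variant ATAAATA, stood on either strand in the 60 upstream bases of 1516 piRNA genes of the clusters (10.7%). No word of one motif contains the other, though TGTTT is part of CTGTTTCA and of the reverse complement of GTAAACA. Of these, 20 were covered in the pooled list (1.32%), against 1.82% of the 12688 without it. In replicate 1 the shares were 1.91% with it and 1.76% without it, and in replicate 2 they were 1.32% with it and 2.73% without it, so here too the replicates differed in order.

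At the summits both motifs were rarer than in the clusters at large. On either strand, CTGTTTCA was in 46 of 1049 summit windows of members (4.39%), against 14.6% of all tiles of that length of the clusters. The shares were 4.56% in replicate 1 and 5.46% in replicate 2. In the rest of chromosome IV it was in 0.970% of summit windows and 1.54% of tiles. A forkhead motif was in 13.3% of member windows in the pooled list, 12.3% in replicate 1 and 15.4% in replicate 2, against 21.3% of the tiles of the clusters. The rest of the chromosome had 14.0% of pooled windows and 18.2% of tiles. Member windows had a median GC content of 40.8% and tiles of the clusters 31.8%, and these words are rich in A and T or stand in such sequence. The part of base composition in these shares was not tested.

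What the members did sit on was mostly protein-coding genes. Exons held 374 member summits (35.7%), against 17.0% of the positions of the clusters. Windows from 500 bp before a coding start to 100 bp after it held 183 (17.4%), against 11.5% of positions, and introns held 243 (23.2%), against 26.7%. Intergenic positions with no other annotation held 158 (15.1%), against 23.6%. In the rest of chromosome IV exons held 38.7% of summits against 26.1% of positions, and promoters 15.9% against 15.6%. Members with a piRNA gene within 100 bp and no other annotation numbered 28 (2.67%), against 17.2% of positions, and their median rank was 18376.5. The shares by annotation were not matched for GC content, and its part in them was not tested.

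Uneven ranks were common, since 29.4% of the 187 pooled members of the top 5000 were in the top 5000 of both replicates. The members of highest signal at piRNA genes outside the IDR list were likewise often uneven between replicates. Like members at large, most of them shared their place with a coding gene. In cluster A they began with the member at *21ur-1248*, inside an intron of *lin-33*, at rank 1204 in the pooled list, 11499 in replicate 1 and 1363 in replicate 2. The member over *21ur-7502* and *21ur-11505*, in an intron of the fatty acid elongase gene *elo-5*, ranked 1302, 748 and 2159 in the same order. That at *21ur-9951*, in an intron of *R13H7.2*, ranked 4195, 2308 and 10528. The summits at *21ur-13850* (2878 pooled) and *21ur-8039* (8026 pooled) lay in no region of replicate 1 and ranked 3739 and 5193 in replicate 2.

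In cluster B the member at *21ur-2814* ranked 1933 in the pooled list, 277 in replicate 1 and 19359 in replicate 2. Both *21ur-4111* (2135, 9766 and 3360) and *21ur-5*, in an intron of the glutamine synthetase gene *gln-3* (3741, 4772 and 3819), were nearer in rank between replicates. The member over *21ur-2168* and *21ur-617*, at the start of *Y40H7A.11*, ranked 4220, 2609 and 22720. That over *21ur-5380*, *21ur-5409* and *21ur-11583*, in an exon of *ilcr-1*, which encodes a receptor like those for interleukin 17, ranked 4370, 1384 and 29163. The IDR member at *21ur-6535* ranked 282, 574 and 256, but the IDR list is itself a filter on the agreement between replicates. Its summit lay 13 bases upstream of the 5′ end of that gene in a window of 24.9% GC.

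Genes that make or use piRNAs, with 4 forkhead genes (*unc-130*, *fkh-5*, *fkh-4* and *fkh-3*), were looked at apart from the clusters, as 30 genes of which 28 matched the annotation. The window reached from 1000 bp before a transcript start to 200 bp after it, and held a pooled summit for 12 of 28 (42.9%), against 34.0% of 19973 protein-coding genes. In replicate 1 it held one for 10 of 28 (35.7%, against 34.4%) and in replicate 2 for 12 (42.9%, against 34.9%). Of the 12 in the pooled list, 3 were forkhead genes and 9 were among the other 24 genes (37.5%). The forkhead genes were *fkh-3*, the gene that the transgene copies (rank 6063), *fkh-5* (18517) and *unc-130* (29828). The window of *fkh-5* held no summit in replicate 1, and that of *unc-130* none in replicate 2. The window held an IDR summit for 1 of 28 genes (3.57%), against 0.886% of all protein-coding genes. This was *ego-1*, which encodes an RNA-dependent RNA polymerase of the germ line, at rank 44 in the pooled list, 36 in replicate 1 and 43 in replicate 2. Among the top 5000 were 2 of 28 (7.14%, against 7.51%), the other being *znfx-1*, for a helicase of germ granules, at 2255, 2862 and 2542. The IDR count rests on 1 gene, and nothing particular to the list is read from it.

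Inside gene bodies, *snpc-4*, for the cluster-binding factor itself, held the region of rank 1 in all 3 lists, with none in the window at its start. The gene for the Argonaute *prg-1* held one of rank 2974 in the pooled list, 1773 in replicate 1 and 2862 in replicate 2. Of higher pooled rank were regions inside *csr-1* (1256, 891 and 3403), *hrde-1* (1331, 5633 and 987) and *glh-1* (1544, 933 and 7955). The P granule gene *pgl-1*, on chromosome IV, held one of rank 466, 4547 and 393. For *prde-1* the best ranks inside the gene were 19396, 11939 and 8474, and for *tofu-4* 9668, 8307 and 6693, while *tofu-5* had no region near its start or inside it. For gene bodies no share over all protein-coding genes is set beside these ranks, so nothing particular to the list is read from them.

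At the bounds of the clusters the nearest members were mostly low in signal. At 4.5 Mb the nearest summit inside had pooled rank 29541 and the nearest outside 21019. The ranks were 17685 inside and 23951 outside at 7.0 Mb, 21733 inside and 25043 outside at 13.5 Mb, and 2752 inside and 14707 outside at 17.2 Mb.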

How the data were processed

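ChIP-seq regions of FKH-3 in 2 biological replicates of 1 group were analysed on ce11. The authors deposited narrowPeak lists of peaks with background for each replicate and for both pooled, and the pooled regions past their IDR threshold. Which aligner and peak caller made them is not given in the sources used here. For each deposited region there is a signal score, whose scale no source states, a q-value as −log10, and a summit offset, all from the authors. Scores were used only as ranks within a list, with the −log10 q-value as an alternative ranking. The matched control, the read depth and the ce10 lists were not analysed here.

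Summits were set against Ensembl 115 gene models of WBcel235 and its RefSeq sequence with Python 3.11.15, using pandas 2.3.3 and numpy 2.4.6 for counting, scipy 1.17.1 for intervals and matplotlib 3.10.9 for plots. tRNA amino acids came from RefSeq. A gene counts as near within 100 bp of a summit, and a 5′ end as covered when inside a region. GC standardisation used 5-kb windows of the rest of chromosome IV weighted to those of the clusters. Annotation classes were assigned in the order tRNA, snoRNA or snRNA gene, promoter, exon, intron, pseudogene, piRNA gene and intergenic. Regions are not replicates, so no p-values were computed. Distance, window and motif procedures were tested on simulated data. The members, gene list and motifs were chosen with earlier results of these data known. Named are all IDR members, and in each cluster the 5 other members of highest pooled signal within 100 bp of a piRNA gene and not of a tRNA, snoRNA or snRNA gene. The 3 comparisons at matched GC content were added after seeing the data. Other bounds, distances, cuts by rank, window widths, a ranking by q-value, merged regions and each replicate's list alone were tried as alternatives.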

Additional observations from a re-analysis of the deposited data

How the results depend on the processing

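Of 65 alternatives to 11 values, 40 stayed within the bounds set for the main value and 25 moved. The bounds were its interval or the replicate spread. For the piRNA pathway genes, with a main value of 1, they were 0.667 and 1.5. For the share in the top set, each replicate alone lies within the spread by construction. Taking one replicate's own list alone (without the other replicate) gave a density ratio of clusters to rest of 0.592 to 0.639, a share in the top set of 1.37 to 1.82%, a median rank of 14927 to 15660.5, a ratio of summits to positions at piRNA genes of 0.312 to 0.348 (0.278 pooled), a ratio of covered piRNA genes to covered bases of 0.284 to 0.362 (0.280 pooled), a ratio of covered genes with to without CTGTTTCA of 0.970 to 1.35 (1.44 pooled), and 23.8 to 76.2% of IDR members in that replicate's top set. The motif ratio crossed 1 without replicate 2.

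The density ratio was 0.538 with the bounds narrowed by 0.25 Mb, 0.666 with them widened, and 0.842 when standardised for GC content. The share of pooled members was 0.572% for the top 220, 3.91% for the top 1000 and 17.8% for the top 5000, and the mean over the replicates was 0.491%, 4.09% and 17.0%. The rest of chromosome IV moved alike, to 0.637%, 3.67% and 17.1% of pooled regions. Summits at piRNA genes relative to positions gave 0.384 within 250 bp, 0.543 within 500 bp, 0.185 for the top 5000, and 0.711 against positions with the GC content of the summits. Covered piRNA genes relative to bases gave 0.230 with the summit within 100 bp, 0.157 for the top 5000 and 0.624 against positions of the same GC content. With 250 bp to either side of the summit the ratio of members to tiles was 0.436 for CTGTTTCA and 0.747 for the forkhead motif, and 0.451 for the forkhead motif in the top 5000. Of the top 1000, 41.5% of members were in the top 1000 of both replicates, above the 37.2% of the rest. The density ratio, the ratio of summits to positions at piRNA genes and the ratio of covered piRNA genes to covered bases stayed below 1 under every alternative run. No paired analysis was possible because no second group exists. Depth could not be weighed, since the lists give no read counts.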
